A study of Mus musculus with 33 samples.

Results

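The nuclear-encoded subunits of oxidative phosphorylation were followed in interscapular brown fat, the heat-producing depot between the shoulder blades, through 24 weeks of normal or high-fat feeding. Members were taken by gene symbol, although the list was chosen with earlier results of these data known. For complex I these were all genes named Ndufa, Ndufb, Ndufc, Ndufs or Ndufv. For complex II they were Sdha to Sdhd and for complex III those named Uqcr. For complex IV they were those named Cox4i, Cox5, Cox6, Cox7 or Cox8, and for complex V those named Atp5. The brown fat isoforms Cox7a1 and Cox8b and the assembly factors were left out by the same rule. Of 77 genes with such a symbol on the array, 72 had a probe detected at p under 0.01 on at least 3 of 33 arrays, which made them 0.748% of the 9630 genes tested. They comprised 35 subunits of complex I, 3 of complex II, 6 of complex III, 12 of complex IV and 16 of complex V. Ndufs1, Sdha, Uqcrfs1, Cox7b2 and Cox8c were detected on 0 arrays and have no further value here. Closest to the detection limit among the members were Cox4i2, detected on 5 arrays, and Atp5md, detected on 27.

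C57BL/6J mice, housed singly at 24 °C with 12-hour light periods, were fed AIN-76, a semi-purified diet (called normal here), or AIN-76 with 39.2 kcal% fat, made up of 20% fat and 1% cholesterol (called high-fat). Both diets were sampled after 2, 4, 8, 20 and 24 weeks and the normal diet also at week 0, which gave 11 groups of 3 Illumina bead arrays. All samples carry the same age label, 7 weeks, and the replicates are numbered but are not called separate animals, so the spread behind each p-value is that between these samples and may be technical. A bead array reads a transcript as the brightness of a probe, given here as a normalised log2 intensity, so that a difference of 1 is a doubling.

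Oxidative phosphorylation is the last stage of fuel oxidation in mitochondria. Complexes I and II take electrons from NADH and succinate, complex III passes them to cytochrome c and complex IV to oxygen, and complexes I, III and IV pump protons that complex V, the ATP synthase, uses to make ATP. In brown fat much of the proton gradient is released as heat through the uncoupling protein Ucp1, and the tissue is known for a high content of respiratory complexes with comparatively little ATP synthase. Most subunits are encoded in the nucleus, and each complex combines catalytic or core subunits with small accessory subunits that stabilise or regulate it.

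Nuclear genes of the respiratory chain are known for promoters that bind NRF1, ETS factors such as GABP, YY1 and the estrogen-related receptors (ERR). Promoter windows of 300 bases, from 250 before to 50 after the transcription start, were available from RefSeq (build GRCm38.p6) for 60 of the 72 members. Both strands were searched, and overlaps between motifs were allowed. The NRF1 letters GCGCANGCG were present for 18 of the 60 members (30%), against 15.3% of the 7829 tested genes with a window and 7.03% of all 27025 genes with one. The ETS letters CCGGAAG were found for 16 members (26.7%, against 20.4% and 9.93%), the YY1 letters AAGATGGCG for 7 (11.7%, against 3.81% and 1.64%) and the ERR letters TNAAGGTCA for 3 (5%, against 0.932% and 1.43%). The SP1 letters GGGCGG were found for 28 members (46.7%, against 68.8% and 38.2%), the CCAAT box for 25 (41.7%, against 42.7% and 41.1%) and the TATAAA box for 6 (10%, against 9.54% and 15.7%). These matches describe letters in a window, not bound sites.

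The windows of 4 genes are shown for the members that the diet results turn on: the pair of ATP synthase genes with the largest falls over all weeks, the complex I gene whose diet difference varied with week, and the complex I gene with the largest rise. Capitals mark any of the 7 motifs on either strand. All 4 lie on the minus strand and are written in the direction of transcription: Atp5k at chr5:108434350-108434649, Atp5g2 at chr15:102670998-102671297, Ndufb6 at chr4:40279372-40279671 and Ndufv1 at chr19:4012706-4013005.
Atp5k: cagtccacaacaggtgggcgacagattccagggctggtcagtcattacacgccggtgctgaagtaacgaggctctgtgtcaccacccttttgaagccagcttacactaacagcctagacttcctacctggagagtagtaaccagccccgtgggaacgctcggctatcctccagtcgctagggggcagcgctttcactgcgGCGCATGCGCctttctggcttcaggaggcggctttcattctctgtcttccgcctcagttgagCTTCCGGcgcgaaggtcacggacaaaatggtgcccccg
Atp5g2: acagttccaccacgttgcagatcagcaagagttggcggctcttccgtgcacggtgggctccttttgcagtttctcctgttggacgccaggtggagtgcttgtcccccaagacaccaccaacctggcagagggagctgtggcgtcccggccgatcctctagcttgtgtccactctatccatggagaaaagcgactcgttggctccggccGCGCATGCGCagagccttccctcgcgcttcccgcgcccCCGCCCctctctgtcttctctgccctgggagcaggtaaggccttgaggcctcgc
Ndufb6: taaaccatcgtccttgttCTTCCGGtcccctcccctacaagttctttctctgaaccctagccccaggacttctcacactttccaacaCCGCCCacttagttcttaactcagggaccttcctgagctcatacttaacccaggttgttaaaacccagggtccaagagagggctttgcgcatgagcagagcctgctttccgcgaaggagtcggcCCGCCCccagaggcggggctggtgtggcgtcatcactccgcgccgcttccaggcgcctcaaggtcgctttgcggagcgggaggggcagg
Ndufv1: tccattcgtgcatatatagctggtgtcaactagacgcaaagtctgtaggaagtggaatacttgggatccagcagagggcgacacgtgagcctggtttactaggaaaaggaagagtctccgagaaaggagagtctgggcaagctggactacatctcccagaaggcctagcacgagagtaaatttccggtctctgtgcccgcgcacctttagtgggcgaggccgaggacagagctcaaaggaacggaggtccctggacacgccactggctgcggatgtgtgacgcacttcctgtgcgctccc
Atp5k and Atp5g2 each hold an NRF1 match shortly before the start, whose first base lies at -50 and -42. Atp5k has an ETS match just after the start, at base 13, and Atp5g2 has SP1 letters at -4. Ndufb6 holds an ETS match at -232 and SP1 letters at -163 and -39, and Ndufv1 holds none of the motifs searched.

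Across the study 29.5% to 33.7% of probes were detected per array, array medians ran from 129 to 183, and arrays of 1 group correlated at r of 0.977 to 0.996 across genes. Brown adipocyte markers were measured for 13 of 15 genes, and their mean lay between 11.54 and 11.82 on all arrays. Single markers moved beneath that mean. From week 0 to week 24 on normal diet 5 of the 13 rose and 3 fell, against 24.1% and 24.2% of all genes. Among them were Ucp1 (0.51) and the transcription factor Zic1 (-1.10). The 6 arrays of week 24 stood apart in both diets, with medians of 129 to 133 and the shift of some subunit probes described below. The diet average, the interaction and the courses over time are therefore also given without these arrays. A pair of high-fat arrays stood low within their own groups: replicate 1 of week 8 and replicate 2 of week 20. In tissue RNA, fewer cells of a type and less RNA per cell cannot be told apart. Many subunit probes lay near the top of the intensity scale, which reached 71976. The Atp5b probe (the catalytic beta subunit of ATP synthase) averaged 69021 and the Cox6a1 probe (the widely expressed isoform of a small complex IV subunit) 65841, and 24 of the 69 genes whose mean lay above 14.99 log2 units were members. Brightness is a property of each probe and does not rank the transcripts.

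Averaged over the 5 weeks, high-fat feeding lowered 18 of the 72 subunits and raised 3 (limma, Benjamini-Hochberg adjusted p under 0.05), against a background of 11.7% of all genes lower and 15.4% higher. The members called lower made up 25% of the list and those called higher 4.17%. The median member difference was -0.053 log2 units, against 0.0024 for all genes, so the differences were small. Complex I held 11 of the falls and 2 of the rises among its 35 subunits (median -0.08), complex V 5 falls and 0 rises among 16 (median -0.053), and complex IV 2 falls and 0 rises among 12 (median -0.029). No subunit of complex III passed in either direction, and 1 of the 3 of complex II rose.

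**Figure D1:**
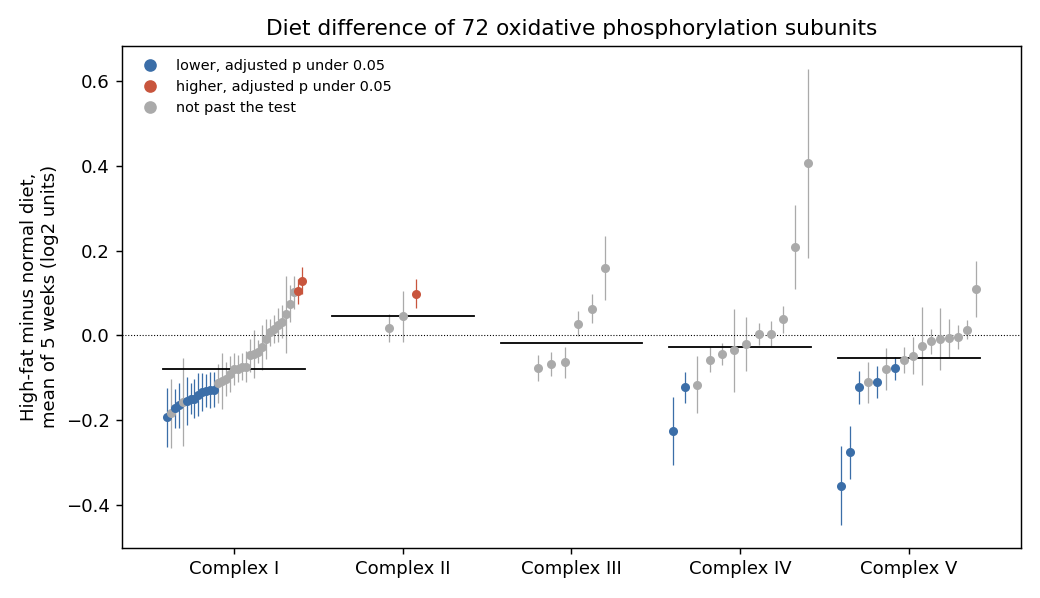
Difference between high-fat and normal diet, as the mean of the 5 weeks, for each of the 72 subunits by complex (points, with the standard error, in log2 units; black lines are medians of a complex). The blue points of the 18 falls lie in complexes I, IV and V, and the 3 rises in complexes I and II.

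Atp5k, the small e subunit of ATP synthase that helps the enzyme form dimers, had the largest fall. Its 15 normal diet arrays of weeks 2 to 24 ran from 7.96 to 8.83 with a median of 8.42, and its 15 high-fat arrays from 7.17 to 8.62 with a median of 8.33. The ranges overlapped widely, and the high-fat arrays reached further down. The average difference was -0.36 log2 units (SE 0.093, adjusted p = 0.0052). Without the arrays of week 24 it was -0.23 (adjusted p = 0.146) and no longer passed. Atp5g2, one of the genes for the proton-carrying c subunit of the ATP synthase rotor, ran from 11.79 to 12.45 (median 12.02) on normal diet and from 11.16 to 12.06 (median 11.81) on high-fat diet. It fell by 0.28 (SE 0.063, adjusted p = 0.0017), and by 0.24 without week 24 (adjusted p = 0.0268), then the larger of the pair.

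Cox7b, a small structural subunit of complex IV, fell by 0.23 (SE 0.079, adjusted p = 0.0348). Ndufb9 and Ndufa1, both accessory subunits of the membrane arm of complex I, fell by 0.19 (SE 0.070, adjusted p = 0.0393) and 0.17 (SE 0.045, adjusted p = 0.0053). The calls for Cox7b and Ndufb9 were lost when any of 11 and 13 single arrays was left out, with adjusted p up to 0.0653 and 0.0769. Of the remaining falls, 9 were complex I subunits (Ndufs5-ps, Ndufa5, Ndufa6, Ndufa11, Ndufc1, Ndufc2, Ndufb3, Ndufb6 and Ndufs4), 3 were complex V subunits (Atp5mpl, Atp5d and Atp5l) and the other was Cox5a of complex IV, with differences from -0.17 to -0.078. Ndufs5-ps is annotated as a transcribed pseudogene of the subunit gene Ndufs5, and signals of the copies may not be separable.

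The subunits that rose were Ndufv1, which binds the flavin and NADH at the entry of complex I, Ndufa9, an accessory subunit next to the quinone-binding part, and Sdhb, the iron-sulfur subunit of succinate dehydrogenase. Ndufv1 ran from 15.30 to 15.73 (median 15.43) on the 15 normal diet arrays and from 15.38 to 15.82 (median 15.53) on the 15 high-fat arrays. It rose by 0.13 (SE 0.032, adjusted p = 0.0036). Ndufa9 rose by 0.10 (SE 0.030, adjusted p = 0.0108) and Sdhb by 0.098 (SE 0.035, adjusted p = 0.0364). All 3 lay above zero at each of the 5 weeks. The rise of Sdhb was lost when any of 11 single arrays was left out, and its other detected probes gave 0.013 and 0.057.

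Within complex I the falls lay among the accessory subunits. Of the 30 accessory subunits measured, 11 fell and 1 rose, with a median of -0.11. Of the 5 core subunits measured, which carry the flavin, iron-sulfur clusters and quinone site, Ndufv1 rose, and Ndufv2 (-0.074), Ndufs3 (0.014), Ndufs7 (0.0066) and Ndufs8 (0.032) did not pass. The difference between the 2 kinds of subunit was not tested. The catalytic beta subunit gene Atp5b (0.013, adjusted p = 0.719), the complex III core subunit gene Uqcrc1 (0.027, adjusted p = 0.544) and the regulatory complex IV subunit gene Cox4i1 (0.0033, adjusted p = 0.950) did not pass either. The Atp5b probe was the brightest of all genes tested and ran only from 16.02 to 16.09 over all arrays. At the top of the intensity scale a difference could hardly show.

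Of the 72 members, 17 lay below zero at all 5 weeks and 5 above, where 1069 and 1105 of the 9630 genes did so. Both a fall on average and a sign below zero at every week were seen for 9 members (12.5%), against 7.56% of all genes. Where several probes of a gene were detected, 19 of 24 genes had the same sign on all of them. Ndufs4, an accessory subunit needed for a stable NADH-oxidising arm, had 4 detected probes, and all lay below zero, at -0.13, -0.17, -0.15 and -0.15. Those of Ndufab1, the acyl carrier protein bound to complex I, also lay below zero on 4 of 4 probes, from -0.13 to -0.07, and none of the 4 passed.

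The number of calls depended on whether week 24 was included and on how arrays were scaled. Without the 6 arrays of week 24, 3 members were lower (Atp5g2, Ndufa6 and Ndufb3) and 1 higher (Ndufv1), against 6.87% and 8.39% of all genes. All 4 were also called with week 24 included. All 21 members called over the 5 weeks kept their sign without week 24, and 19 were smaller. They were chosen by the average that includes week 24, and the refit uses most of the same arrays. The kept signs are therefore no independent check. The median of the 18 falls was -0.15 with week 24 and -0.10 without it. Cox7b then lay at -0.19 (adjusted p = 0.173), Ndufa1 at -0.099 (adjusted p = 0.151), Ndufa9 at 0.098 (adjusted p = 0.0561) and Sdhb at 0.11 (adjusted p = 0.0624). When arrays were aligned by their median instead of by quantiles, 48 members were lower and 0 higher, against 24% and 8.2% of all genes. That scaling moved the median of all genes to -0.067 and of members to -0.19, and Ndufv1, Ndufa9 and Sdhb then lay at -0.027, -0.039 and -0.063. Left out one at a time, the low arrays of week 8 and week 20 left 14 and 13 falls.

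Markers of some other cell types moved with diet. All 14 measured macrophage markers, of 18 listed, were higher on high-fat diet on average, and 12 of 15 endothelial markers were, against 15.4% of all genes. Without week 24 these were 7 and 6, against 8.39%. At week 24 the mean of the macrophage markers ran from 7.64 to 7.87 on normal diet and from 9.45 to 9.59 on high-fat diet. That of the endothelial markers ran from 9.48 to 9.60 and from 9.93 to 10.01. At week 8, 9 of the 14 macrophage markers lay below zero, with a median of -0.10. Of 9 measured white adipocyte markers, 4 were higher on average and 1 lower, against 15.4% and 11.7% of all genes. Of 19 skeletal muscle markers 1 was higher, of 2 lymphocyte markers 1 was higher, and of 3 red blood cell markers 0 passed. The part of all these markers in the subunit differences was not tested.

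Single weeks before week 24 held few calls. At week 2, Cox6b2 was the only member that changed, 1 higher and 0 lower against 1.13% and 0.768% of all genes. No member passed at week 4, where 0.727% of all genes were higher and 0.467% lower, or at week 8, where 0.924% were higher and 1.17% lower. At week 20, Ndufb3, a membrane arm accessory subunit of complex I, was lower and 0 members were higher, against 1.62% and 3.04%. The median member difference was 0.024 at week 2, -0.0025 at week 4, -0.086 at week 8, -0.066 at week 20 and -0.12 at week 24. Members below zero numbered 26, 37, 56, 53 and 56 of 72 in that order. Without the low high-fat array of week 8 the median at that week was 0.0033, and without that of week 20 it was -0.025 there.

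**Figure D2:**
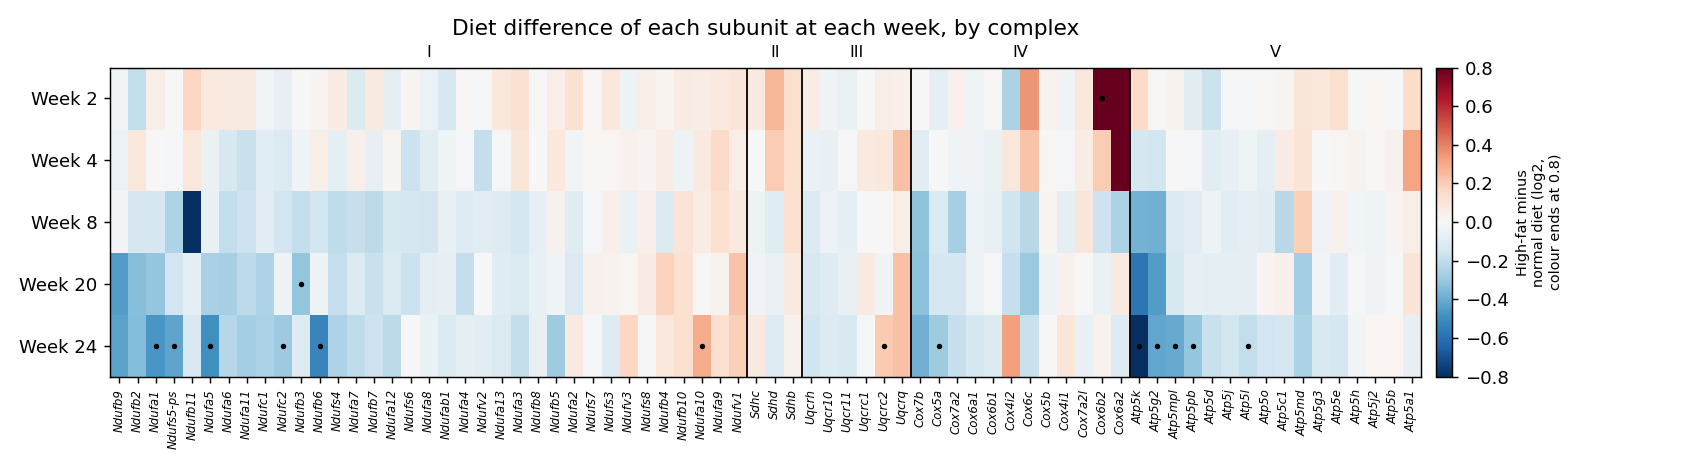
Difference between high-fat and normal diet of each subunit (columns, grouped by complex and ordered by the average) at each week (rows), in log2 units, with black dots where the adjusted p was under 0.05. Colours end at 0.8 in either direction, and 13 of the dots lie in the row of week 24.

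Cox6b2 encodes the testis isoform of a complex IV subunit. Its normal diet arrays of week 2 read 4.67, 5.90 and 6.16, and its high-fat arrays read 6.63, 6.42 and 6.74. The groups did not overlap, and the lowest value was that of normal diet replicate 1. Only 1 of the 3 normal diet arrays detected the probe, against 3 of 3 high-fat arrays. With the undetected arrays raised to the lowest detected signal on each, 6.10 and 6.03, the difference was 0.50, or 1.42-fold, so the fitted size rests on readings below detection. The fitted difference was 1.02 (SE 0.22, adjusted p = 0.0138), and without normal diet replicate 1 or high-fat replicate 3 it no longer passed. The week 0 arrays read 7.32, 7.42 and 7.44, above both groups of week 2. The mean of skeletal muscle markers on the same arrays was 8.78 to 9.52 on normal and 9.65 to 10.86 on high-fat diet, although 0 of the 19 markers, Cox6a2 included, passed at that week. With their mean as a covariate the Cox6b2 difference was 0.89 (adjusted p = 0.0704).

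Ndufb3 read 13.76, 13.57 and 13.64 on normal diet and 13.33, 13.24 and 13.47 on high-fat diet at week 20. The groups did not overlap. It fell by 0.31 (SE 0.087, adjusted p = 0.0361). Its call was lost without normal diet replicate 1 or 3, or high-fat replicate 1 or 2, with adjusted p up to 0.176. Ndufb11, a membrane arm subunit on the X chromosome, had the lowest difference at week 8, at -0.85 (SE 0.23, adjusted p = 0.0540), and did not pass. Its high-fat mean there was 6.27, near the lowest detected signals of those arrays, 5.93 to 6.40. A second, dimmer probe of Ndufb11 gave 0.13 at that week, with group means of 4.96 on normal and 5.08 on high-fat diet. Both means lay below the lowest detected signals of those arrays, 6.09 to 6.14 and 5.93 to 6.40, so this probe is no usable second reading there.

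At week 24, 11 members were lower and 2 higher on high-fat diet, against 7.64% and 12.7% of all genes. The 3 high-fat arrays lay below all 3 normal diet arrays for 23 members (31.9%), against 17% of all genes, and above them for 5 (6.94%), against 20.6%. The falls covered complex I (Ndufb6, Ndufa5, Ndufa1, Ndufs5-ps and Ndufc2), complex V (Atp5k, Atp5g2, Atp5mpl, Atp5pb and Atp5l) and complex IV (Cox5a, a matrix-side subunit of cytochrome oxidase). The subunits called higher were Uqcrc2, a core subunit of complex III, and Ndufa10, an accessory subunit of complex I. The mean over the complex V members was 12.76 to 12.88 on the normal diet arrays and 12.57 to 12.65 on the high-fat arrays, and the complex I means were 13.54 to 13.58 and 13.40 to 13.45. The means overlapped for complex II (12.05 to 12.21 and 12.11 to 12.22), complex III (14.58 to 14.61 and 14.56 to 14.63) and complex IV (11.85 to 12.02 and 11.73 to 11.96).

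Atp5k read 8.42, 8.23 and 7.96 on normal diet and 7.56, 7.17 and 7.36 on high-fat diet at week 24. All 3 high-fat arrays were lower than all 3 normal diet arrays, and the difference was -0.84 (SE 0.21, adjusted p = 0.0045). Its low values were not confined to that week: the low high-fat arrays of weeks 8 and 20 read 7.48 and 7.26, while the other high-fat arrays of those weeks read 8.14 to 8.45. Ndufa5, an accessory subunit of the peripheral arm, read 14.56, 14.42 and 13.81 on normal diet and 13.80, 13.76 and 13.76 on high-fat diet. Normal diet replicate 3 thus lay next to the high-fat arrays. It fell by 0.49 (SE 0.13, adjusted p = 0.0071).

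Uqcrc2 read 15.49, 15.54 and 15.44 on normal diet and 15.62, 15.77 and 15.70 on high-fat diet. It was higher by 0.21 (SE 0.075, adjusted p = 0.0496), and it passed in only 7 of the 33 fits that left out 1 array. Ndufa10 read 15.22, 15.29 and 15.54 on normal diet and 15.63, 15.67 and 15.65 on high-fat diet, a rise of 0.30 (SE 0.086, adjusted p = 0.0141). On arrays aligned by the median of probes detected on all arrays, Uqcrc2 lay at -0.024 and Ndufa10 at 0.063, and neither passed. In that scaling 25 members were lower at week 24 and 0 higher. The shares of all genes in that scaling are not given here, so these counts cannot be read as a result about the members alone. Leaving out normal diet replicate 1, normal diet replicate 2 or high-fat replicate 2 of week 24 left 4, 6 and 7 calls there. The calls for Ndufa5 and Ndufa10 were lost without normal diet replicate 1 or 2, with adjusted p up to 0.0859 and 0.101.

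**Figure D3:**
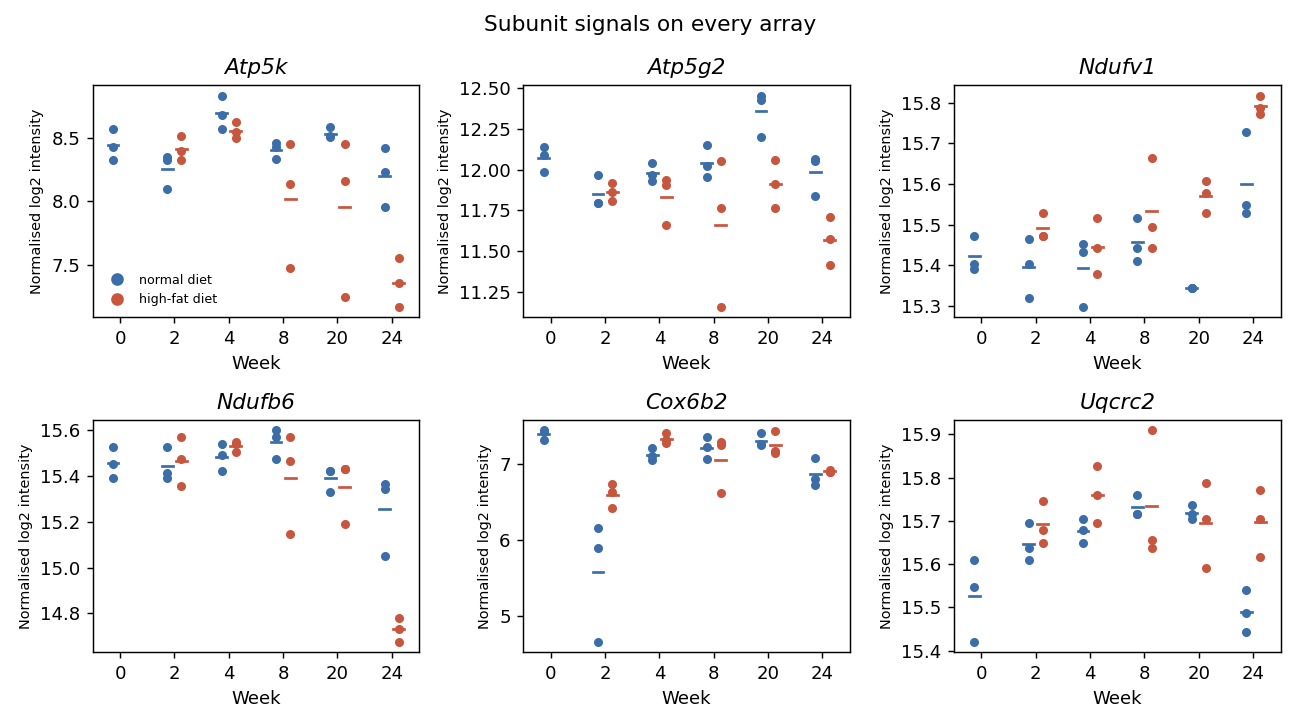
Normalised log2 intensity of 6 subunits on each of the 33 arrays by week (points; bars are group means; blue is normal diet, red high-fat diet). The group means of Atp5k and Ndufb6 are lowest on high-fat diet at week 24, and that of Cox6b2 is lowest on the normal diet arrays of week 2.

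Ndufb6, a membrane arm accessory subunit of complex I, was the 1 member whose diet difference varied between weeks (F test of the interaction, adjusted p = 0.0322), against 6.41% of all genes. At week 24 it read 15.35, 15.37 and 15.05 on normal diet and 14.68, 14.78 and 14.73 on high-fat diet. At weeks 2 to 20 the normal diet arrays ran from 15.33 to 15.60 and the high-fat arrays from 15.15 to 15.57, and the diets overlapped. The difference at week 24 was -0.53 (SE 0.097, adjusted p = 0.00023). A second, dimmer probe of the gene gave -0.62 at week 24 (SE 0.22, adjusted p over all probes = 0.0519). The next smallest p of the interaction belonged to Cox6b2 (adjusted p = 0.0756) and Ndufa1 (adjusted p = 0.0763). The Ndufb6 call was lost without normal diet replicate 2 of week 2, replicate 1 of week 4 or replicate 1 or 2 of week 24, or any high-fat array of week 24, with adjusted p up to 0.120. Without week 24 as a whole the adjusted p was 0.803.

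On normal diet, 29 members were lower at week 24 than at week 0 and 9 higher, against 24.2% and 24.1% of all genes, with a median of -0.16 against 0.02 for all genes. The largest falls were those of Ndufb9 (-2.15, SE 0.16), Atp5e (-2.05, SE 0.16), Atp5a1 (-2.02, SE 0.15), Cox7b (-1.71, SE 0.18) and Sdhd (-1.62, SE 0.14). Atp5e is the epsilon subunit and Atp5a1 the alpha subunit of ATP synthase, and Sdhd anchors succinate dehydrogenase in the membrane. The largest rises were those of Cox6a2 (2.57, SE 0.50), Atp5c1, the central stalk gamma subunit (0.85, SE 0.099), and Ndufb7 (0.61, SE 0.15). Next came Atp5pb, the stator b subunit (0.44, SE 0.11), and Cox7a2l (0.32, SE 0.071). The adjusted p of these 10 ran up to 0.0019. With arrays aligned by their median the median member difference was 0.053 instead.

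Most of these falls were not seen at week 20. Of the 29 members that fell by week 24, 13 lay above zero at week 20 and 2 had already fallen: Ndufs8, a core iron-sulfur subunit of complex I (-0.31 at week 20 and -0.52 at week 24), and Atp5d, the delta subunit of the ATP synthase central stalk (-0.23 and -0.36). With week 20 in place of week 24, 5 members were lower than at week 0 and 7 higher, against 18.4% and 14.8% of all genes, and the median was -0.021. Only 5 members were called in the same direction at both weeks. At week 20, Ndufb9 lay at 0.13, Atp5a1 at 0.24, Cox7b at 0.041, Atp5e at -0.045 and Sdhd at -0.005 against week 0. Over all normal diet weeks 40 members differed, against 66.5% of all genes, and over the high-fat weeks 51, against 64.4%. Without week 24 these were 8 and 7, against 36.4% and 24%. The smallest p belonged to Atp5a1, Ndufb9 and Atp5e on normal diet and to Atp5a1, Ndufb9 and Ndufb5 on high-fat diet, and none of these passed without week 24.

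On normal diet 11 members lay more than 1 log2 unit lower at week 24 than at week 0: Atp5a1, Atp5e, Atp5md, Cox7a2, Cox7b, Ndufb2, Ndufb4, Ndufb5, Ndufb9, Ndufb10 and Sdhd. That was 15.3% of members, against 4.74% of all genes. Chosen by that value, they are described without a test. Their mean on the arrays of weeks 0 to 20 ran from 9.71 to 10.44. On the 6 arrays of week 24 it ran from 8.18 to 8.59, below every earlier array in both diets. The mean of the other 61 members was 13.94 to 14.03 on the normal diet arrays of week 24 and 13.85 to 13.89 on the high-fat arrays. Atp5a1, for example, read 11.96, 11.72 and 11.93 at week 0 and 9.52, 10.07 and 9.98 at week 24 on normal diet, and 9.82, 9.61 and 9.94 on high-fat diet. The probe of Atp5md, a small subunit that links ATP synthase dimers, was not detected on any array of week 24, and week 0 was at least 2.28-fold higher.

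Other probes of the same genes did not always share the step. A second probe of Atp5a1 lay at 0.35 (SE 0.20) where the brighter one lay at -2.02. The brighter probe of Ndufa5 lay at -0.39 and a dimmer one at -2.25. For Ndufab1, the 3 brighter probes lay at 0.25, 0.27 and 0.57 and the dimmest at -1.46. For Sdhb the values were -0.0022, 0.25 and -1.13. In all, 12 of the 24 members with several detected probes had the same sign on every probe for this comparison, against 21 of 24 for the diet difference at week 24. By mean brightness, the dimmest 24 members had a median of -0.50 with 12 falls (50%). Their range, up to 13.54 log2 units, holds 9376 of the 9630 genes tested, so these are hardly a set matched by brightness. Those 9376 genes had a median of 0.024, with 24.2% lower. The brightest 24 members had a median of -0.059 with 7 falls (29.2%). All 69 genes of that range, which include these 24 members, had a median of -0.033 with 18.8% lower.

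**Figure D4:**
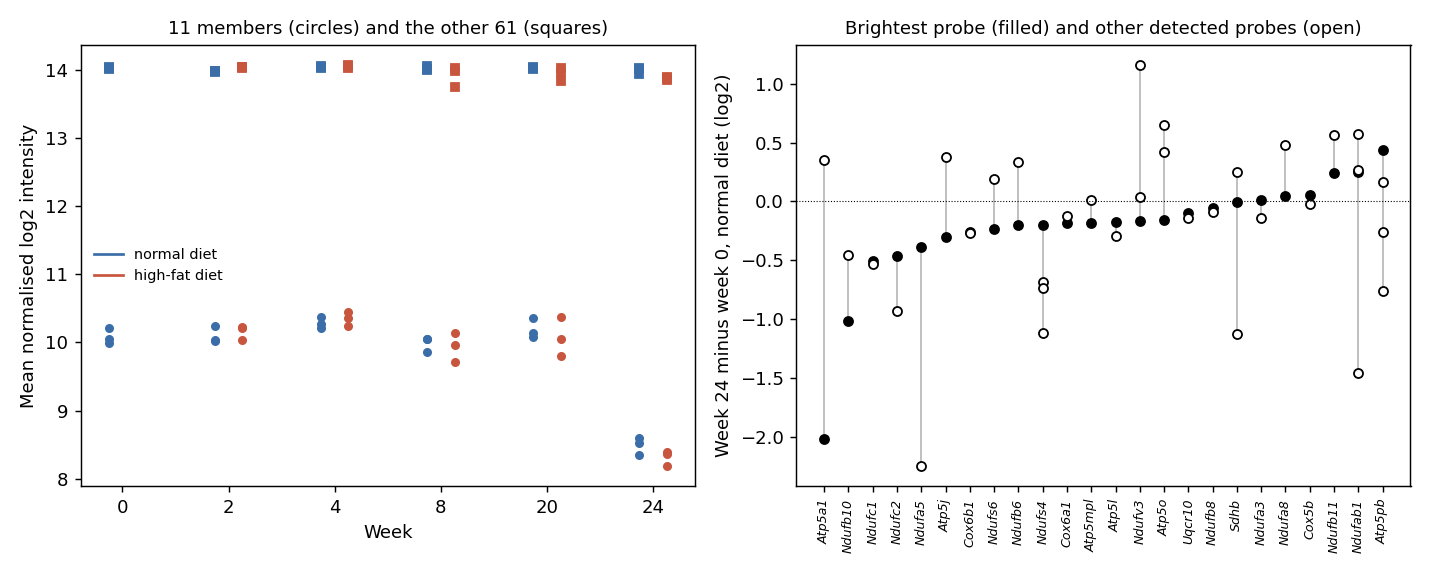
Left, mean log2 intensity per array of the 11 members over 1 unit lower at week 24 on normal diet (circles) and of the other 61 (squares), by week and diet. Right, week 24 minus week 0 on normal diet for each detected probe of the 24 members with several probes (filled, the brightest probe; open, the others). The circles drop on all 6 arrays of week 24, and probes of 1 gene differ by up to 2.37 log2 units.

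Cox6a2, the isoform of a complex IV subunit typical of heart and skeletal muscle, followed muscle markers from array to array. It read 7.37, 7.35 and 7.60 at week 0 and 9.96, 10.29 and 9.78 on normal diet at week 24, without overlap. On high-fat diet at week 24 it read 9.69, 11.53 and 8.50, the widest spread of any group. Across the 33 arrays its level correlated with the mean of 18 other skeletal muscle markers at Pearson r of 0.965 and Spearman rho of 0.927, a description over arrays that share groups. Without week 24 they were 0.978 and 0.956 over 27 arrays. The marker mean was 8.24 to 8.51 at week 0 and 9.89 to 10.25 on normal diet at week 24. With it as a covariate the rise of Cox6a2 from week 0 to week 24 was 0.67 (SE 0.17, adjusted p = 0.0039) in place of 2.57. Its diet average, 0.41 (SE 0.22, adjusted p = 0.184), did not pass. The next highest correlations among members were 0.446 for Uqcrc2 and 0.402 for Cox5b.

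**Figure D5:**
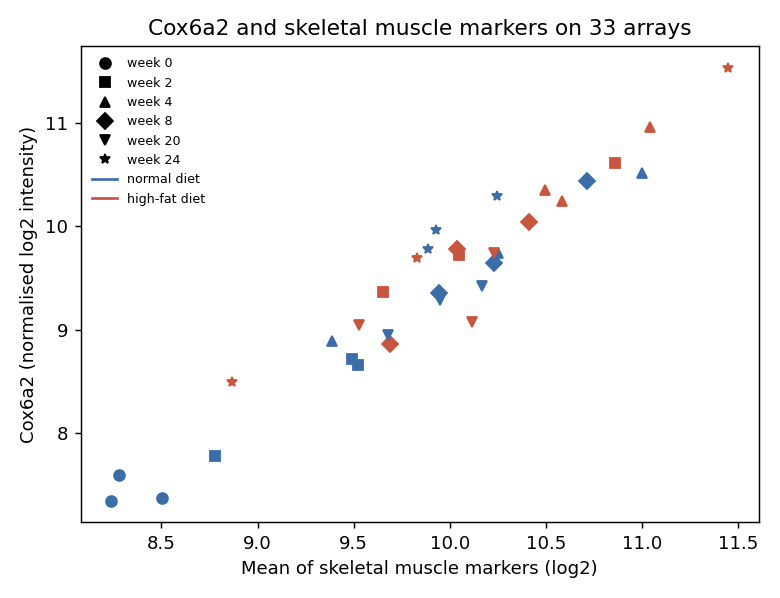
Normalised log2 intensity of Cox6a2 against the mean of 18 other skeletal muscle markers on 33 arrays, by week (shape) and diet (colour). Both measures rise together (r of 0.965), with the week 0 arrays at the lower end.

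The isoforms left out by the rule did not pass in the diet average, with 0.062 for Cox7a1 (adjusted p = 0.283) and 0.038 for Cox8b (adjusted p = 0.375), nor did Ucp1 at 0.042 (adjusted p = 0.557). Of 15 measured genes of the citric acid cycle, which supplies the electrons, 8 rose (53.3%) and 1 fell (6.67%), against 15.4% and 11.7% of all genes, with a median of 0.10. Without week 24, 4 rose and 0 fell, against 8.39% and 6.87%. Idh2, the mitochondrial NADP-dependent isocitrate dehydrogenase, rose by 0.54 (SE 0.052, adjusted p = 2.1e-08). Suclg2 rose by 0.17 (SE 0.044, adjusted p = 0.0063) and Mdh2, malate dehydrogenase, by 0.16 (SE 0.037, adjusted p = 0.0017). Dlat of the pyruvate dehydrogenase complex fell by 0.24 (SE 0.055, adjusted p = 0.0018). Without week 24 the Dlat difference was -0.16 (adjusted p = 0.0933). Of 41 measured assembly factors, 5 rose and 5 fell, 12.2% each way, which is near the shares of all genes. Without week 24, 4 rose and 2 fell, against 8.39% and 6.87% of all genes. Coa7, a complex IV assembly factor, rose by 0.30 (SE 0.058) and Pet100, also of complex IV, fell by 0.35 (SE 0.075). At week 24, 5 assembly factors fell and 0 rose, against 7.64% and 12.7% of all genes, among them Taco1, the translational activator of a mitochondrial complex IV subunit, at -0.47 (SE 0.12, adjusted p = 0.0084).

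Of 21 measured regulators of mitochondrial gene expression, 5 rose (23.8%) and 1 fell (4.76%) on average, against 15.4% and 11.7% of all genes. Without week 24, 4 rose and 1 fell, against 8.39% and 6.87% of all genes. The call for Ppargc1b was then lost (0.17, adjusted p = 0.10). Perm1, a muscle and brown fat regulator of oxidative genes, rose by 0.72 (SE 0.077, adjusted p = 9.4e-08) and Esrrb, an estrogen-related receptor, by 0.46 (SE 0.080, adjusted p = 0.00012). Nrf1, whose motif is printed above for Atp5k and Atp5g2, rose by 0.24 (SE 0.040, adjusted p = 7.2e-05), Gabpa by 0.19 (SE 0.069, adjusted p = 0.0406) and the coactivator Ppargc1b by 0.17 (SE 0.057, adjusted p = 0.0272). Ssbp1, which binds mitochondrial DNA, fell by 0.21 (SE 0.058, adjusted p = 0.0077). These lists share arrays with the subunits, and differences between lists were not tested.

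Subunits varied together only weakly within groups. For deviations from group means over the 33 arrays, the median Pearson correlation of the 2556 member pairs was 0.226. It was 0.293 for the 799 pairs within a complex and 0.193 for the 1757 pairs across complexes. Without week 24 these medians were 0.29, 0.374 and 0.252. All pairs share arrays and their scaling, and bright and dim probes enter alike.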

How the data were processed

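Biotin-labelled cRNA from 33 brown fat samples was hybridised to Illumina bead arrays. The authors deposited intensities of 45281 probes without normalization between arrays (BeadStudio 3.1.3 is named in the submitters' processing notes), each with a detection p-value. The authors also deposited log2 values that share 1 distribution across arrays, and these served as an alternative only. How those log2 values and the detection p-values were computed is not given in the sources used here.

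Intensities were background-corrected (normexp with detection p-values, as in neqc of limma 3.58.1, R 4.3.3), raised by an offset of 16, normalized by quantiles and put on the log2 scale. Symbols came from the probe annotation, updated through Entrez for 34807 probes; 34885 probes had 1 symbol, 18 several and 10378 none. Probes detected at p under 0.01 on at least 3 arrays were kept (17243), and the brightest stood for its gene. A model with 1 mean for each of the 11 groups was fitted across all 9630 genes (22 residual and 4.13 prior degrees of freedom), with Benjamini-Hochberg adjustment over all of them and 0.05 as threshold. With 3 arrays a group, their number limits how precise a value can be. The fitting step was tested on simulated data.

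For an undetected group, a bound used the higher of the probe's own value and the lowest detected signal on each array. Members named singly were, where they passed, the 5 largest rises and falls of the diet average and of week 24 against week 0, up to 3 each way for a single week, the 3 smallest p of each F test, the brightest member of a complex, members next to the detection limit, and core subunits and tissue isoforms. The genes Ndufb11, Ndufs4 and Ndufab1 and the probe pairs shown were chosen after their values were seen. Most other genes named were chosen by size within their list. The members, gene lists and tests were chosen with earlier results of these data known. Alternatives were no background correction, median shifts, the authors' values, other detection filters, averaging the probes of a gene, a replicate block, a muscle covariate, single weeks, each array left out, and fits without week 24. The related lists, muscle correlation and covariation without week 24, the fit without week 8, the median shift over detected probes and the fit by probe were chosen after seeing the data. Over all 165 pairs of same-numbered replicates from different groups, the median r of deviations was 0.003. Within a week, r was over 0.1 in 2 of 15 pairs, both at week 24 (0.124 for replicate 2 and 0.133 for replicate 3). The numbers were not taken to pair samples. Figures used matplotlib 3.10.9.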

Additional observations from a re-analysis of the deposited data

Results flagged for a closer look

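The diet difference of Ndufb6, an accessory subunit of the membrane arm of complex I, varied between weeks by the F test of the interaction (adjusted p = 0.0322), with -0.53 log2 units at week 24 and overlapping diets at weeks 2 to 20. Single outlying arrays were not tested for in groups of 3.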

How the results depend on the processing

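Counts below are members past the threshold of 72, and medians are of the member differences in log2 units. Shares of all genes are not given beside these counts, so they describe the settings and not the members alone. The diet average gave 48 with arrays aligned by their median (median -0.185) and 4 without week 24. The interaction gave 3 without background correction, 11 with the median shift, 2 with the authors' deposited values, 2 without week 8, and 0 with the mean of a gene's probes, with the muscle covariate or without week 24. Week 2 gave 0 with the muscle covariate or its own 6 arrays only. The week 4 median was -0.071 with the median shift and 0.0029 without a detection filter. Week 8 gave 55 with the median shift (median -0.433), 1 with the mean of a gene's probes and 1 with the shift over probes detected on all arrays. Week 20 gave 5 without background correction, 7 with the median shift (median -0.213), 4 with the authors' values, and 0 without a filter, with its own 6 arrays only or with the shift over detected probes. Week 24 gave 8 with its own 6 arrays only, a median of -0.193 with the median shift, and 25 with the shift over detected probes (median -0.276). For week 24 against week 0 on normal diet, the median was 0.053 and 0.014 with those shifts, and week 20 in place of week 24 gave 12 (median -0.021). Without week 24 the weeks on normal and high-fat diet gave 8 and 7. The cause of these shifts was not tested, except that fits on 6 arrays and without week 24 hold fewer samples.

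Single members that turned sign were Ndufv1 (-0.027), Ndufa9 (-0.039) and Sdhb (-0.063) with the median shift, Uqcrc2 (-0.024) with the shift over detected probes, Atp5pb with the mean of its probes (-0.10 at week 24 against week 0), and Ndufb9 (0.13), Atp5a1 (0.24) and Cox7b (0.041) with week 20 in place of week 24. The complex IV median at week 4 was -0.0048 with Ndufa4 counted there.

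With each array left out in turn, the diet average gave 15 to 26 (median -0.065 to -0.042), the interaction 0 to 4, week 2 0 to 2 (0.013 to 0.030), week 4 0 to 0 (-0.011 to 0.0044), week 8 0 to 3 (-0.148 to 0.0033), week 20 0 to 5 (-0.095 to -0.025), week 24 4 to 19 (-0.130 to -0.111), week 24 against week 0 27 to 42 (-0.187 to -0.111), and the weeks on normal and high-fat diet 31 to 48 and 47 to 53. The week 4 median lay above zero without normal diet replicate 1 or 3 or high-fat replicate 2 (0.00012, 0.0040 and 0.0044), and that of week 8 without high-fat replicate 1. With replicate number as a block, week 24 gave 10 calls and the diet average 21. Among members named singly, the block ended only the call for Uqcrc2 at week 24 (adjusted p = 0.0550). Probes near the top of the intensity scale and probes near the detection limit can understate differences.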
